A study of Mus musculus with 17 samples.

Results

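The effect of 4-hydroxytamoxifen (4OHT) on new RNA in mouse embryonic stem cells was compared between cells held in PP1 and cells held in a MEK inhibitor (MEKi). The quantity described is an interaction: the log2 change with 4OHT in PP1 minus the log2 change with 4OHT in MEKi, called the interaction here. It used 12 of the 17 libraries of the series, 3 in each of 4 groups: PP1 with 4OHT, PP1, MEKi with 4OHT, and MEKi. The other libraries, 3 of 4OHT and 2 of DMSO with no inhibitor of ERK or MEK, entered the same fit and are used only as an outside measure.

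All cells were of the E14tg2a line (129SV background), with Erk1 and Erk2 knocked out, ERK function supplied by a cDNA for FLAG-ERK2 Q103A, and a stably expressed cRAF-ErT2 cassette. All had been grown in serum, LIF and Chir99021. For 24 h before treatment the medium was serum and LIF with 250 nM of the FGF receptor blocker PD173074. 4OHT was given at 250 nM for 2 h, PP1 at 2 µM and the MEK inhibitor at 1 µM. The MEK inhibitor's code is spelled differently in the labels and in the series description. Ethynyl uridine at 5 mM marked the RNA made in the last 15 min, and marked RNA was captured by click chemistry. The replicates are 3 cell clones of 1 line, named a, b and c in every group (DMSO has b and c). Clone was a block in the fit, so p-values refer to the spread among libraries left after the clone and group terms. How long cells had been in an inhibitor before the libraries without 4OHT were taken is not clear from the labels. Within an arm, the effect of 4OHT and that of time in the inhibitor therefore cannot be told apart. The interaction holds the same limit, since time in PP1 and time in MEKi could act differently.

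In the RAF, MEK and ERK cascade, RAF kinases phosphorylate MEK, and MEK phosphorylates ERK, which acts on transcription factors and other kinases. The cRAF-ErT2 fusion is switched on by 4OHT. A MEK inhibitor stops the signal before ERK is activated, while PP1 blocks the catalytic site of the enlarged ATP pocket of ERK2 Q103A and leaves MEK above it free to act. PP1 is also known as an inhibitor of Src family kinases. In embryonic stem cells, ERK induces its own feedback inhibitors of the Sprouty, Spred and Dusp families and pushes cells out of the naive state towards the formative epiblast or the primitive endoderm. The interaction asks where RAF activation changed transcription differently with the block at ERK2 and with the block at MEK.

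The 12 libraries held 5239690 to 9808333 counts, and 14907 of 25899 gene symbols had enough counts to test. Levels are CPM, read counts scaled to library size after TMM, and 3 counts correspond to 0.285 to 0.766 CPM in these libraries. Clone a of PP1 had the lowest total and held 42% of its counts in 14 loci of very high count, against 10.9% to 32.6% in the other 11 libraries. The background estimated from long genes was highest in clone a of MEKi (13.1 CPM per Mb) and clone b of MEKi with 4OHT (9.35), and lowest in clone c of PP1 with 4OHT (2.46). Across genes, log2 CPM of libraries of 1 group correlated with Pearson's r of 0.976 to 0.991. The stem cell markers Pou5f1 (103 to 254 CPM), Sox2 (156 to 270), Nanog (238 to 464) and Esrrb (947 to 1438) were well above the 3-count level in all 12 libraries. The knockout is shared by every group and so does not check the group labels.

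New RNA responded differently in the 2 arms at 2242 of 14907 genes (15%), at a Benjamini-Hochberg adjusted p under 0.05 in edgeR's quasi-likelihood test with clone as a block. The interaction was positive, meaning a higher response with PP1, at 1319 genes (8.85%) and negative at 923 (6.19%). At least a 2-fold difference was seen at 308 of the positive and 341 of the negative genes. Leaving out any 1 of the 12 libraries gave 958 to 1593 positive and 731 to 1275 negative genes, the highest counts of both without clone a of PP1. Leaving out every library of clone b gave 786 and 510, and leaving out clone c gave 439 and 281. The split between directions depended on the scaling: with the 14 high-count loci left out and library totals as the only scaling, 813 genes were positive and 1537 negative, so that 34.6% of the calls were positive against 58.8% here. That setting moved the median interaction of all genes to -0.13, against -0.01 here, and library totals with all genes kept called 272 and 252.

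**Figure D1:**
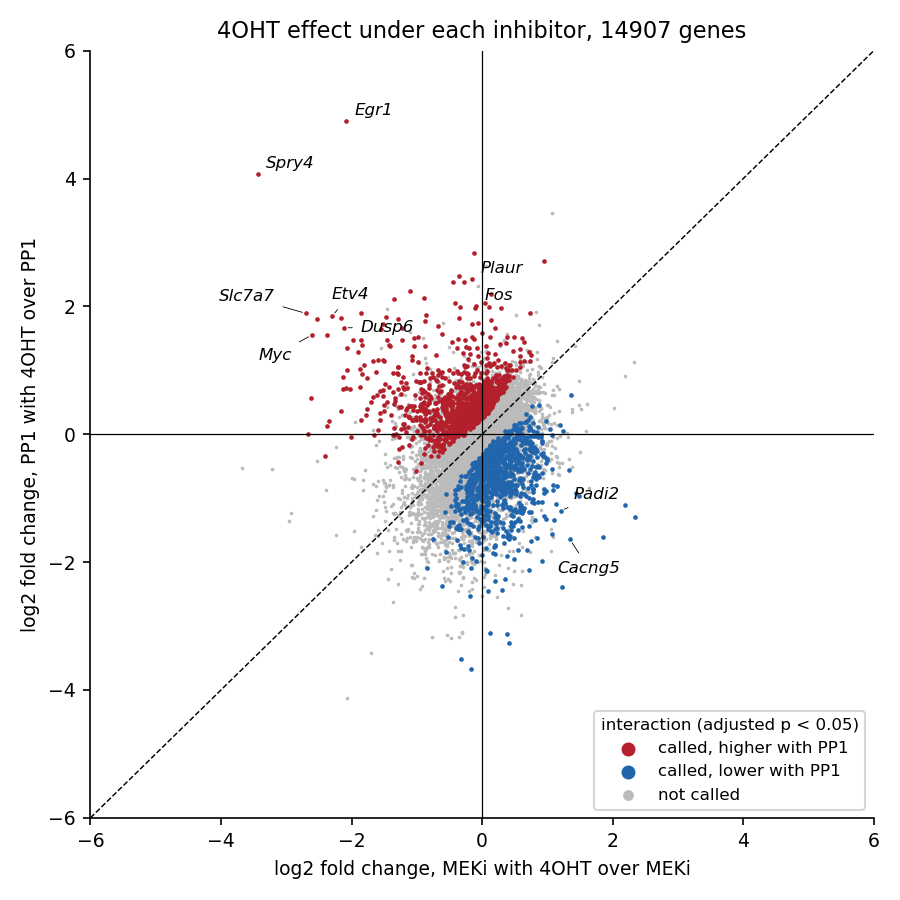
Each point is 1 of 14907 genes, placed by its log2 fold change with 4OHT in PP1 (vertical) and in MEKi (horizontal), with red and blue for genes called positive (1319) and negative (923) in the interaction and grey for the rest. Spry4 and Egr1 lie far into the upper left, higher with 4OHT in PP1 and lower with 4OHT in MEKi, and Cacng5 and Padi2 lie on the opposite side of the diagonal of equal response.

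With PP1, 4OHT changed 5318 genes (35.7%), 3059 higher (20.5% of genes tested) and 2259 lower (15.2%). With MEKi it changed 2767, 1457 higher (9.77%) and 1310 lower (8.79%). The MEKi count of higher genes was 821 to 865 when clone a or c of MEKi with 4OHT, or clone a or c of MEKi, was left out. A positive interaction can come from either arm. Of the 1319 positive genes, 661 rose with PP1 and were not called with MEKi, 281 rose with PP1 and fell with MEKi, and 253 fell with MEKi and were not called with PP1. A further 61 rose and 13 fell in both arms to a different degree, and 50 were called in neither arm. Of the 923 negative genes, 550 fell with PP1 and were not called with MEKi, 175 rose with MEKi and were not called with PP1, and 125 fell with PP1 and rose with MEKi. These classes use the libraries of the interaction and describe how it is made up.

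In the libraries without 4OHT, whose time in the inhibitor is not clear, the inhibitors differed little. In those with 4OHT they differed widely. Without 4OHT, 14 genes (0.0939%) were higher in PP1 than in MEKi and none lower by edgeR's quasi-likelihood test. DESeq2 gave 21 higher and none lower, limma-voom 13 higher and none lower, and 752 genes had an unadjusted p under 0.05. The count was 25 without clone a of PP1, 9 without clone c of PP1 and 6 without clone c of MEKi. With 4OHT, 2494 genes were higher in PP1 than in MEKi (16.7%) and 2270 lower (15.2%).

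The genes with the largest interactions included known outputs of ERK signalling. Spry4, a Sprouty protein that inhibits signalling between receptors and RAF (ENSMUSG00000024427.7, mm10 chromosome 18, 38586247 to 38601415, minus strand), had 837, 730 and 758 CPM in PP1 with 4OHT (clones a, b and c), against 50.3, 41.9 and 47.3 CPM in PP1. In the other arm it had 1.52, 2.20 and 1.08 CPM in MEKi with 4OHT, against 16.4, 19.3 and 16.98 CPM in MEKi. No library of any group overlapped with another group, and the order was the same in every clone. Spry4 rose 16.8-fold with 4OHT in PP1 (log2 4.07 ± 0.10, SE) and fell 10.9-fold in MEKi (log2 -3.44 ± 0.17), an interaction of 7.51 ± 0.18 (edgeR adjusted p = 4.41e-19). It was also 2.64-fold higher in PP1 than in MEKi without 4OHT (edgeR adjusted p = 4.23e-08).

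Egr1, a zinc finger factor of the immediate early response (ENSMUSG00000038418.7, chromosome 18, 34859823 to 34864984, plus strand), had 181, 181 and 166 CPM in PP1 with 4OHT, against 8.17, 5.08 and 5.51 CPM in PP1. It had 0.9499, 1.20 and 1.57 CPM in MEKi with 4OHT, against 7.19, 5.56 and 3.59 CPM in MEKi. The libraries without 4OHT overlapped between inhibitors, and those with 4OHT lay on opposite sides of them. The interaction was 6.98 ± 0.37 (edgeR adjusted p = 3.97e-09), from a rise of 4.90 ± 0.18 in PP1 and a fall of 2.08 ± 0.33 in MEKi on the log2 scale.

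Dusp6, a phosphatase that dephosphorylates ERK (ENSMUSG00000019960.8, chromosome 10, 99263231 to 99267489, plus strand), had 154, 149 and 162 CPM in PP1 with 4OHT, against 50.3, 49.1 and 47.7 CPM in PP1. It had 5.51, 5.89 and 5.20 CPM in MEKi with 4OHT, against 22.0, 31.1 and 20.4 CPM in MEKi. The 4 groups did not overlap. Its interaction was 3.78 ± 0.18 (edgeR adjusted p = 1.43e-13).

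Myc, the growth-promoting bHLH factor (ENSMUSG00000022346.15, chromosome 15, 61985391 to 61990374, plus strand), had 40.0, 47.0 and 50.6 CPM in PP1 with 4OHT, against 19.6, 14.0 and 14.5 CPM in PP1. It had 1.52, 1.10 and 1.27 CPM in MEKi with 4OHT, against 10.1, 8.18 and 6.01 CPM in MEKi. The levels in MEKi with 4OHT were the lowest of the 4 groups in every clone. The interaction was 4.16 ± 0.32 (edgeR adjusted p = 3.97e-09).

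Etv4, an ETS factor of the PEA3 group (ENSMUSG00000017724.14, chromosome 11, 101769742 to 101785371, minus strand), had 49.0, 48.1 and 48.0 CPM in PP1 with 4OHT, against 12.2, 15.2 and 12.1 CPM in PP1. It had 2.00, 2.60 and 2.65 CPM in MEKi with 4OHT, against 13.0, 12.1 and 10.8 CPM in MEKi. The 2 groups without 4OHT overlapped (log2 difference of PP1 minus MEKi 0.17, edgeR adjusted p = 0.946), and the interaction was 4.15 ± 0.20 (edgeR adjusted p = 1.22e-13).

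Slc7a7, which encodes a light chain of a cationic amino acid transporter (ENSMUSG00000000958.10, chromosome 14, 54369442 to 54417780, minus strand), had 137, 135 and 107 CPM in PP1 with 4OHT, against 34.0, 33.9 and 33.5 CPM in PP1. It had 5.89, 6.49 and 5.20 CPM in MEKi with 4OHT, against 40.9, 36.8 and 35.5 CPM in MEKi. Its interaction was 4.58 ± 0.15 (edgeR adjusted p = 4.86e-17). Without PP1 or MEKi it had 56.3, 46.7 and 47.4 CPM in 4OHT, against 48.6 and 38.1 CPM in DMSO. The difference was not called (log2 0.16 ± 0.10, edgeR adjusted p = 0.177). Slc7a7 overlaps Oxa1l, and with the strand of counting unknown the reads of the pair cannot be told apart.

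**Figure D2:**
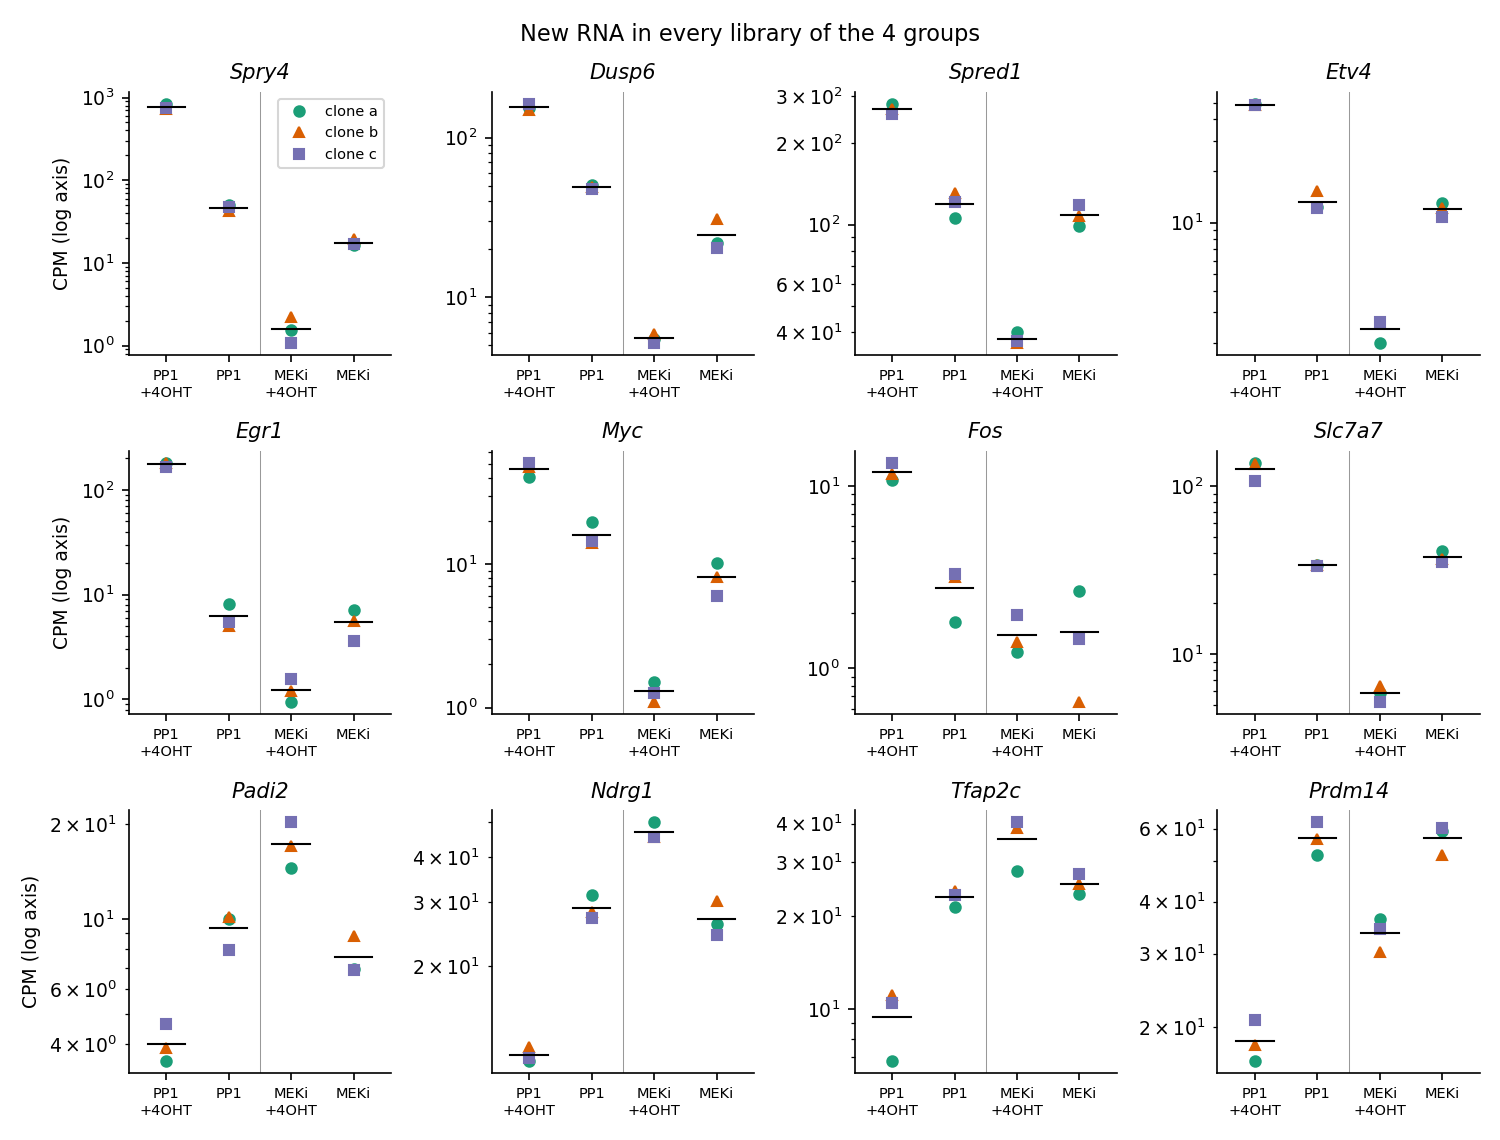
CPM on a log axis for 12 genes in PP1 with 4OHT, PP1, MEKi with 4OHT and MEKi, with 1 point per library (green circles, clone a, orange triangles, clone b, purple squares, clone c) and a black line at the mean of 3. Spry4, Dusp6, Etv4, Egr1, Myc and Slc7a7 are highest in PP1 with 4OHT and lowest in MEKi with 4OHT, while Padi2, Ndrg1 and Tfap2c have the reverse order.

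The feedback inhibitors of the pathway were counted first. Of 22 measured members, 10 had a positive (45.5%) and 2 a negative interaction (9.09%), against 8.85% and 6.19% of all genes tested. The median was 0.47, against -0.01 over all genes tested. With PP1, 11 of the 22 rose and 2 fell, against 20.5% and 15.2% of all genes. With MEKi, 1 rose (4.55%) and 8 fell (36.4%), against 9.77% and 8.79% of all genes. The positive count was 9 to 11 and the negative count 0 to 2 over the 26 alternatives, with no negative member without clone c or with library totals. Besides Spry4 and Dusp6, the positive members were Spred1, Dusp4, Dusp5, Spry2, Il17rd, Spred3, Dusp1 and Spred2.

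Spred1, which blocks activation of RAF, had 280, 269 and 258 CPM in PP1 with 4OHT, against 105, 130 and 121 CPM in PP1, and 39.8, 36.4 and 37.1 CPM in MEKi with 4OHT, against 99.0, 108 and 118 CPM in MEKi. The groups without 4OHT overlapped, and the interaction was 2.69 ± 0.12 (edgeR adjusted p = 1.65e-14). Il17rd, the Sef inhibitor of FGF receptor signalling, had 211, 213 and 225 CPM in PP1 with 4OHT, against 87.0, 92.0 and 94.0 CPM in PP1, and 46.3, 48.6 and 58.0 CPM in MEKi with 4OHT, against 76.2, 85.4 and 86.6 CPM in MEKi (interaction 1.95 ± 0.10, edgeR adjusted p = 6.51e-13). Spry2 was at 97.5, 93.0 and 97.7 CPM in PP1 with 4OHT, against 56.7, 56.1 and 62.6 CPM in PP1, and at 13.2, 14.5 and 13.4 CPM in MEKi with 4OHT, against 31.3, 35.0 and 34.4 CPM in MEKi. Its 4 groups did not overlap (interaction 2.00 ± 0.13, edgeR adjusted p = 1.74e-11). Dusp4, a nuclear phosphatase of ERK, had an interaction of 2.51 ± 0.22. The 2 negative members were Dusp8, a phosphatase with activity mainly towards JNK and p38 (-1.40, from log2 -0.52 with PP1 and 0.88 with MEKi), and Lrig1, an inhibitor of ERBB receptors (-0.51, from -0.35 and 0.16). Among members not called were Spry1 (0.63), Dusp9 (-1.07) and Dusp14 (-0.50).

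Of 14 ETS factors, 6 were called and each was positive (42.9%, against 8.85% of all genes), with a median of 0.33. The 3 of the PEA3 group were among them. Etv1 had 119, 121 and 123 CPM in PP1 with 4OHT, against 63.0, 78.1 and 79.9 CPM in PP1, and 17.1, 13.8 and 13.4 CPM in MEKi with 4OHT, against 65.1, 63.5 and 64.8 CPM in MEKi. Its fall with MEKi (log2 -2.12 ± 0.12) was larger than its rise with PP1 (0.70 ± 0.10), and the interaction was 2.83 ± 0.16 (edgeR adjusted p = 8.64e-12). Etv5 had an interaction of 1.32 ± 0.10, and the repressor Etv6 one of 1.23 ± 0.11, of which the change with MEKi was -1.01 and that with PP1 0.22. Elk3 (0.75) and Elk4 (0.68), cofactors of SRF, completed the set. Gabpa (0.14), Elk1 (-0.38) and Ets2 (-0.06) were not called.

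Immediate early transcription factors were mostly called with PP1. Of 25 measured, 12 had a positive (48.0%) and 1 a negative interaction (4.0%), against 8.85% and 6.19% of all genes. The median was 0.66. With PP1, 15 rose (60.0%) and 2 fell (8.0%), against 20.5% and 15.2% of all genes. With MEKi, 2 rose (8.0%) and 4 fell (16.0%), against 9.77% and 8.79% of all genes, where 18.6% were called in that arm. Nab2, a corepressor of EGR factors, had 67.6, 66.5 and 70.5 CPM in PP1 with 4OHT, against 17.4, 14.5 and 13.7 CPM in PP1, and 17.8, 15.2 and 17.9 CPM in MEKi with 4OHT, against 16.1, 15.1 and 15.2 CPM in MEKi. The 3 libraries of PP1 with 4OHT stood alone, and the other 9 lay between 13.7 and 17.9 CPM. Its interaction was 2.06 ± 0.17 (edgeR adjusted p = 3.53e-09). Nab2 overlaps Nemp1 and Stat6. The AP-1 partner Maff followed the same shape, with 43.7, 41.0 and 49.9 CPM in PP1 with 4OHT, against 13.0, 16.6 and 16.7 CPM in PP1, and 12.7, 13.8 and 18.2 CPM in MEKi with 4OHT, against 11.6, 14.4 and 15.2 CPM in MEKi (interaction 1.41 ± 0.16, edgeR adjusted p = 3.23e-07).

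Fos, a subunit of AP-1, had 10.8, 11.7 and 13.4 CPM in PP1 with 4OHT, against 1.79, 3.19 and 3.31 CPM in PP1, and 1.24, 1.40 and 1.96 CPM in MEKi with 4OHT, against 2.65, 0.654 and 1.46 CPM in MEKi. The MEKi libraries were low and scattered, and the interaction of 2.09 ± 0.45 (edgeR adjusted p = 0.0018) missed the threshold without the 2 libraries of highest background (1.52, edgeR adjusted p = 0.0547) and without clone a (1.38, edgeR adjusted p = 0.0658). Fosb (2.97), Fosl2 (1.88), Nab1 (1.66), Junb (1.18) and Fosl1 (1.16) were called positive too. Atf3, a stress-induced factor, was the negative one (-1.59), and without clone c no member was negative. Jun (-0.58), Jund (-0.70), Srf (0.47) and Egr3 (3.42) were not called.

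Genes induced early or later by ERK held the same 2 shapes. Of 25 measured, 11 were positive (44%) and 3 negative (12%), against 8.85% and 6.19% of all genes. The median was 0.72. Plaur, the urokinase receptor (ENSMUSG00000046223.10, chromosome 7, 24462484 to 24475968, plus strand), had 205, 190 and 155 CPM in PP1 with 4OHT, against 28.1, 40.6 and 31.7 CPM in PP1, and 32.0, 35.8 and 31.4 CPM in MEKi with 4OHT, against 37.2, 44.8 and 29.6 CPM in MEKi. Only PP1 with 4OHT stood apart, and the interaction was 2.58 ± 0.15 (edgeR adjusted p = 1.63e-11). Arc, a gene of the synaptic and growth factor response, had 55.1, 55.1 and 56.4 CPM in PP1 with 4OHT, against 15.1, 11.8 and 14.6 CPM in PP1, and 13.2, 12.8 and 14.7 CPM in MEKi with 4OHT, against 13.2, 13.6 and 13.0 CPM in MEKi (interaction 2.01 ± 0.17, edgeR adjusted p = 2.64e-09).

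Hbegf, a ligand of the EGF receptor, had an interaction of 2.32 ± 0.14 (edgeR adjusted p = 7.75e-12), with changes of 1.98 in PP1 and -0.34 in MEKi. Zfp36l1, which promotes decay of mRNAs with AU-rich elements, showed the opposed shape, with 102, 102 and 99.2 CPM in PP1 with 4OHT, against 74.0, 77.7 and 72.2 CPM in PP1, and 24.0, 23.9 and 24.6 CPM in MEKi with 4OHT, against 42.8, 57.2 and 51.0 CPM in MEKi. Its 4 groups did not overlap (interaction 1.49 ± 0.13, edgeR adjusted p = 6.65e-09). Phlda1, a growth factor response gene, had 15.1, 13.0 and 14.7 CPM in PP1 with 4OHT, against 3.83, 2.99 and 3.31 CPM in PP1, and 0.760, 0.599 and 1.18 CPM in MEKi with 4OHT, against 2.40, 2.45 and 1.84 CPM in MEKi (interaction 3.47 ± 0.34, edgeR adjusted p = 4.44e-08). The 3 negative members were Ngfr (-0.75), Cited2 (-0.52) and Pvr (-0.34), and Ier3 was not called (0.80 ± 0.33, edgeR adjusted p = 0.104). None of the 3 stayed called without clone c, and with library totals the counts were 7 and 1.

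The promoters of these genes were read for the motifs of factors that ERK acts through. RefSeq windows (GRCm38.p6, the mm10 build) were present for 30 of the 45 named genes with an interaction of at least 1. Spry4 and Egr1 were left out of the motif search in single genes. Among the genes searched, 5 held a motif in the 250 bases before a start, which is not a share of the 30. The sequences of 3 of those 5 genes are shown as examples of the AP-1 motif and of the ETS motif on each strand. That of Dusp6, a feedback gene with none of the motifs, is shown with them. Capitals mark the motif, TGANTCA for AP-1 (its own reverse complement) and CCGGAAG for ETS factors on either strand.
Plaur promoter, chr7:24462233-24462482, plus strand: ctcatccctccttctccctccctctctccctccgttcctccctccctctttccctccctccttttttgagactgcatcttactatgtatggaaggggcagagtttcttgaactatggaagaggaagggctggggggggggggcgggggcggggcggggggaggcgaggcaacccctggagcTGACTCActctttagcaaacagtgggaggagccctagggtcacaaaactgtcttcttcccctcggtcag
Bmp4 promoter, chr14:46390670-46390919, minus strand: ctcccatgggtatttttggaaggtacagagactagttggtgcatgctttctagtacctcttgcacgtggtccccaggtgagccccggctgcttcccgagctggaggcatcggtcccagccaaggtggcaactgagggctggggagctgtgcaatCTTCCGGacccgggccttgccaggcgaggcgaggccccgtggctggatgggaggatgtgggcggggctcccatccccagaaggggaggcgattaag
Tiparp promoter, chr3:65528197-65528446, plus strand: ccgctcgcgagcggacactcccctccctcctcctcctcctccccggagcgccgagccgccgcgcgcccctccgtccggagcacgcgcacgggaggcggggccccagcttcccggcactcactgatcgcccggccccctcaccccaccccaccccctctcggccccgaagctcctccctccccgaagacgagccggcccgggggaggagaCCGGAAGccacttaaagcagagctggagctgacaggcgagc
Dusp6 promoter, chr10:99262981-99263230, plus strand: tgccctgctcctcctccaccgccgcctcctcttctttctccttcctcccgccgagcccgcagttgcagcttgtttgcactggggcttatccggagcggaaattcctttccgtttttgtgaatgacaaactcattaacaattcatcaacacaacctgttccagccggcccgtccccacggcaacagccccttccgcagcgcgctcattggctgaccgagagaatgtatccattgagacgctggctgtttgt
In Plaur the AP-1 motif lies 69 to 63 bases before the start, in Bmp4 the ETS motif lies 96 to 90 bases before it on the opposite strand, and in Tiparp 41 to 35 bases before it on the same strand.

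Motif shares were then counted over all matched promoters, with both strands searched. The ETS motif was in 17.5% of 1347 windows of positive genes (95% Wilson interval 15.6% to 19.6%), in 7.43% of 983 windows of negative genes (5.95% to 9.24%) and in 15.3% of 14476 windows of all genes tested (14.7% to 15.9%). Among genes positive by at least 2-fold it was in 6.62% of 287 windows (4.28% to 10.1%). The AP-1 motif was in 4.01%, 6.0% and 5.36% of windows of positive, negative and all genes. The SRF motif, a CArG box of CC, 6 A or T, and GG, was in 1.34%, 1.73% and 1.33%. A match is a description of the letters and not evidence of binding. The intervals cover counting error only and treat windows of 1 gene as independent.

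Of 23 components of the cascade itself, 4 were positive (17.4%, against 8.85% of all genes) and 1 negative (4.35%, against 6.19%), with a median of 0.12. The positive members included the adaptor Shc1 (0.53) and the RAS inactivator Nf1 (0.36), and the negative one was the scaffold Ksr1 (-0.67). The count of positive members was 0 without clone c or with library totals, 1 without clone b, and 1 when clone a or b of PP1 with 4OHT or clone a or b of MEKi with 4OHT was left out, and the call of Ksr1 was lost without clone c of PP1 with 4OHT (edgeR adjusted p = 0.0523) or clone b of PP1 (0.0595). Map2k1, which encodes MEK1 (-0.05 ± 0.09, edgeR adjusted p = 0.789), and Mapk3 (0.10 ± 0.24, edgeR adjusted p = 0.843) were not called. Of 17 genes of Src family kinases and their substrates, 3 were positive (17.6%) and 2 negative (11.8%), against 8.85% and 6.19% of all genes. The median was 0.11. The negative count was 1 without clone b or c, and the same without clone a of PP1 with 4OHT, clone b of PP1, clone c of MEKi with 4OHT or clone a of MEKi. The positive genes were the focal adhesion proteins Tns3 (1.34), Bcar1 (0.93) and Pxn (0.75), and the kinase Abl1 was among the negative ones (-0.36). Src itself had 90.8, 86.8 and 92.5 CPM in PP1 with 4OHT, against 89.1, 100 and 105 CPM in PP1, and 98.9, 96.3 and 96.8 CPM in MEKi with 4OHT, against 96.4, 84.7 and 106 CPM in MEKi (-0.15 ± 0.11, edgeR adjusted p = 0.425).

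Naive pluripotency genes divided. Of 23 measured, 9 were positive (39.1%) and 5 negative (21.7%), against 8.85% and 6.19% of all genes. The median was -0.12. Klf5, a Kruppel-like factor of the naive network, had 617, 535 and 564 CPM in PP1 with 4OHT, against 295, 261 and 284 CPM in PP1, and 148, 140 and 139 CPM in MEKi with 4OHT, against 249, 269 and 249 CPM in MEKi. It rose with PP1 and fell with MEKi, and the interaction was 1.88 ± 0.09 (edgeR adjusted p = 1.55e-13). Dppa2, a chromatin factor of stem cells, had 86.3, 94.6 and 88.3 CPM in PP1 with 4OHT, against 52.1, 59.6 and 53.05 CPM in PP1, and 15.8, 20.5 and 17.2 CPM in MEKi with 4OHT, against 42.6, 40.7 and 39.2 CPM in MEKi (interaction 1.91 ± 0.12, edgeR adjusted p = 1.75e-11). Gbx2, a homeobox factor (2.82), Tdh, threonine dehydrogenase (1.55), and Dppa4 (0.97) were also positive.

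Prdm14 and Nanog were negative. Prdm14, a repressor that guards the naive state, had 16.6, 18.1 and 20.8 CPM in PP1 with 4OHT, against 51.8, 56.7 and 62.2 CPM in PP1, and 36.4, 30.2 and 34.4 CPM in MEKi with 4OHT, against 59.0, 51.7 and 60.1 CPM in MEKi. It fell in both arms, by 1.64 with PP1 and by 0.76 with MEKi on the log2 scale, and the interaction was -0.88 ± 0.16 (edgeR adjusted p = 0.000243). Nanog had 238, 241 and 258 CPM in PP1 with 4OHT, against 399, 300 and 319 CPM in PP1, and 464, 403 and 462 CPM in MEKi with 4OHT, against 348, 357 and 336 CPM in MEKi (interaction -0.81 ± 0.19, edgeR adjusted p = 0.0123). The call of Nanog was lost without clone a of PP1 with 4OHT, clone a or c of MEKi with 4OHT, or clone c of MEKi (edgeR adjusted p 0.0523 to 0.061), at interactions of -0.78 to -0.82, and without all libraries of clone a (-0.63, edgeR adjusted p = 0.102) or clone c (-0.87, edgeR adjusted p = 0.119). The negative count of the list was 3 without clone c or with library totals. Klf4 (-0.22 ± 0.10, edgeR adjusted p = 0.155) and Tbx3 (-0.12 ± 0.10, edgeR adjusted p = 0.484) were not called.

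Among 11 core pluripotency genes, 4 were called and each was positive (36.4%, against 8.85% of all genes), with a median of 0.44. They were Dnmt3l (1.16), Trim71 (0.63), Tdgf1 (0.37) and Rif1 (0.35). The count was 8 without clone a of PP1, 2 without clone b of MEKi with 4OHT, and 7, 2 and 1 without clones a, b and c, and Rif1 lost its call in 22 of 26 alternatives. Pou5f1 had 211, 223 and 231 CPM in PP1 with 4OHT, against 254, 133 and 155 CPM in PP1, and 119, 112 and 127 CPM in MEKi with 4OHT, against 103, 174 and 118 CPM in MEKi. Its libraries without 4OHT scattered widely and the interaction was not called (0.44 ± 0.39, edgeR adjusted p = 0.548), nor was that of Sox2 (0.28 ± 0.14, edgeR adjusted p = 0.202). The summed level of the list was 2956 to 3074 CPM in PP1 with 4OHT, against 2640 to 3222 CPM in PP1, and 1984 to 2078 CPM in MEKi with 4OHT, against 2425 to 2909 CPM in MEKi.

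Of 15 formative and primed epiblast genes, 7 were called and each was positive (46.7%, against 8.85% of all genes). The median was 0.57. With PP1, 3 of the 15 rose, a share no higher than the 20.5% of all genes, and 1 fell (6.67%, against 15.2%). With MEKi, 1 rose (6.67%, against 9.77% of all genes) and 7 fell (46.7%, against 8.79%). Only the falls with MEKi were above the share of all genes. Zic2, a zinc finger factor of the epiblast, had 36.4, 38.8 and 33.6 CPM in PP1 with 4OHT, against 32.9, 32.8 and 25.2 CPM in PP1, and 9.69, 9.78 and 7.45 CPM in MEKi with 4OHT, against 21.6, 21.6 and 15.5 CPM in MEKi (interaction 1.38 ± 0.16, edgeR adjusted p = 4.52e-07). Otx2 had 20.5, 22.4 and 26.6 CPM in PP1 with 4OHT, against 26.3, 21.7 and 27.4 CPM in PP1, and 12.2, 10.3 and 15.8 CPM in MEKi with 4OHT, against 18.4, 23.1 and 26 CPM in MEKi. Its interaction of 0.72 ± 0.18 (edgeR adjusted p = 0.00734) came with a fall of 0.82 in MEKi and no call in PP1 (-0.09). Zic5 (1.14) and Cdh2 (0.78) were positive too, and Fgf5 (2.04 ± 0.49, edgeR adjusted p = 0.00469) was measured at 0.699 to 3.07 CPM, close to the 3-count level. The list's count was 4 without clone b, 3 without clone c and 3 with library totals, and without clone b or c neither Otx2 (edgeR adjusted p = 0.217 and 0.214) nor Fgf5 (0.0502 and 0.0745) was called.

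Markers of other lineages were counted next. Of 17 primitive endoderm genes, 1 was positive (5.88%) and 5 negative (29.4%), against 8.85% and 6.19% of all genes. The median was -0.53. The negative ones included the transcription factor Gata6 (-1.84) and the basement membrane genes Col4a2 (-0.65), Lama1 (-0.53) and Col4a1 (-0.51), and the positive one was Lamb1 (0.53). Gata6 had 1.44, 0.777 and 1.32 CPM in PP1 with 4OHT, against 3.57, 2.49 and 2.33 CPM in PP1, and 3.80, 4.39 and 3.14 CPM in MEKi with 4OHT, against 2.52, 1.47 and 3.20 CPM in MEKi (edgeR adjusted p = 0.00743). Its call was lost without clone b (-1.31, edgeR adjusted p = 0.168) and without the 2 libraries of highest background (-1.41, edgeR adjusted p = 0.0559). The summed level of the list was 4077 to 5762 CPM in PP1 with 4OHT, against 5198 to 12150 CPM in PP1, and 4193 to 4778 CPM in MEKi with 4OHT, against 4975 to 9692 CPM in MEKi. The range was wider in the libraries without 4OHT, and the part of that spread in the result was not tested. The negative count was 3 without clone b, 2 without clone c and 1 with library totals as the only scaling. In bulk libraries, fewer cells of a type and less RNA per cell cannot be told apart. Tfap2c, a factor of trophoblast and germ cells, had 6.80, 11.1 and 10.5 CPM in PP1 with 4OHT, against 21.4, 24.2 and 23.5 CPM in PP1, and 28.1, 38.6 and 40.5 CPM in MEKi with 4OHT, against 23.6, 25.5 and 27.4 CPM in MEKi. It was the called gene of 9 trophoblast genes (-1.75 ± 0.18, edgeR adjusted p = 1.09e-07). Of 4 neuroectoderm genes Pax6 was called (2.07), of 4 fibroblast genes Fbln1 (-0.43), and the 1 measured gene of the 2-cell-like state was not.

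Genes of BMP and Nodal signalling were often called, 8 positive (44.4%) and 3 negative (16.7%) of 18, against 8.85% and 6.19% of all genes. The median was 0.21. Bmp4, a BMP ligand (ENSMUSG00000021835.15, chromosome 14, 46383520 to 46390669, minus strand), had 34.8, 32.3 and 35.2 CPM in PP1 with 4OHT, against 11.2, 11.6 and 8.58 CPM in PP1, and 1.90, 3.29 and 2.94 CPM in MEKi with 4OHT, against 7.32, 10.1 and 6.40 CPM in MEKi. It was lowest in MEKi with 4OHT in every clone, with an interaction of 3.24 ± 0.28 (edgeR adjusted p = 9.44e-09), and it overlaps 2 predicted genes. Id3, an inhibitor of bHLH factors and a BMP target, had 15.7, 14.9 and 15.5 CPM in PP1 with 4OHT, against 10.5, 10.9 and 9.68 CPM in PP1, and 0.380, 0.499 and 0.294 CPM in MEKi with 4OHT, against 2.27, 4.25 and 1.46 CPM in MEKi. The MEKi with 4OHT libraries held few reads of Id3, so that the size of its interaction (3.18 ± 0.44, edgeR adjusted p = 9.1e-06) is imprecise. Smad7, an inhibitory SMAD, had 1005, 850 and 900 CPM in PP1 with 4OHT, against 443, 532 and 526 CPM in PP1, and 227, 206 and 266 CPM in MEKi with 4OHT, against 386, 401 and 426 CPM in MEKi (1.68 ± 0.11, edgeR adjusted p = 4.65e-11). The negative genes included Lefty1 (-1.41) and Id2 (-1.21). Nodal was not called (-0.15). The negative count was 1 without clone c, and the positive count 4 with library totals.

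Ribosome biogenesis genes were called with PP1 and hardly at all with MEKi. Of 30 measured, 17 were called in the interaction and each was positive (56.7%, against 8.85% of all genes). The median was 0.40. With PP1, 21 rose (70.0%, against 20.5% of all genes, median 0.40), and with MEKi 1 fell (3.33%, against 8.79%, median -0.00). Wdr43, a processome subunit, had 451, 438 and 428 CPM in PP1 with 4OHT, against 306, 309 and 322 CPM in PP1, and 317, 308 and 310 CPM in MEKi with 4OHT, against 326, 325 and 316 CPM in MEKi (interaction 0.54 ± 0.08, edgeR adjusted p = 4.63e-05). The rRNA methyltransferase Nop2 (0.65), Nop16 (0.64) and Tsr1 (0.63) behaved likewise. These are small differences, and the count was 25 without clone a of PP1, 5 without clone b, 2 without clone c, 10 with the high-count loci left out and library totals, and 0 with library totals alone, where the median was 0.35. Of 30 cell cycle genes, 9 were called and each was positive (30.0%, against 8.85% of all genes), with a median of 0.09. They were the G1 genes Ccnd2 (1.87), Cdk6 (1.70), E2f2 (1.06), Ccnd3 (0.87), Ccne2 (0.51), Ccne1 (0.49) and E2f3 (0.39), the phosphatase Cdc25a (0.43) and the replication licensing factor Cdc6 (0.50). The count was 3 without clone c, 4 with library totals and 5 without the clone block. The mitotic genes Ccnb1 (0.07), Plk1 (-0.02) and Aurka (-0.02) were not called. Cdk6 had 302, 282 and 274 CPM in PP1 with 4OHT, against 189, 230 and 217 CPM in PP1, and 97.7, 91.8 and 91.5 CPM in MEKi with 4OHT, against 226, 225 and 227 CPM in MEKi (edgeR adjusted p = 3.93e-11).

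Cholesterol synthesis genes and p53 targets responded in both arms. Of 22 cholesterol synthesis genes, 20 rose with PP1 (median log2 change 0.76) and 20 with MEKi (median 0.59). That is 90.9% in each arm, against 20.5% of all genes with PP1 and 9.77% with MEKi. In the interaction 5 were called and each was positive (22.7%, against 8.85% of all genes), with a median of 0.19. Among them were Lss (0.75), Cyp51 (0.54), Idi1 (0.48) and Fdft1 (0.41). Lss, lanosterol synthase, had 71.8, 84.1 and 84.5 CPM in PP1 with 4OHT, against 32.2, 33 and 30.8 CPM in PP1, and 57.1, 51 and 58.1 CPM in MEKi with 4OHT, against 37.2, 39.9 and 34.5 CPM in MEKi (interaction 0.75 ± 0.18, edgeR adjusted p = 0.00468). It overlaps a predicted gene, and its call was lost without clone b (0.63, edgeR adjusted p = 0.145), without clone c (0.74, edgeR adjusted p = 0.103) and without the 2 libraries of highest background (0.56, edgeR adjusted p = 0.061). The count was 8 without clone a of PP1, 3 without clone b of MEKi with 4OHT, 10 without clone a, 1 without clone b, and 0 without clone c or with library totals as the only scaling. Of 19 p53 targets, 15 rose with PP1 (78.9%) and 12 with MEKi (63.2%), against 20.5% and 9.77% of all genes. In the interaction 2 were positive (Plk3 1.46, Sesn2 0.48), a share of 10.5% that is near the 8.85% of all genes. Without clone b neither was called, and Sesn2 lost its call without clone b of PP1 with 4OHT (edgeR adjusted p = 0.0518) or clone a of MEKi with 4OHT (0.0577). Over all genes, 779 rose in both arms, 25.5% of those that rose with PP1 and 53.5% of those that rose with MEKi, and 456 fell in both, 20.2% and 34.8%. A gene whose interaction was not called is not shown to respond alike.

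The remaining lists are given by their counts, where 8.85% of all genes were positive and 6.19% negative. The positive and negative counts were 5 of 13 LIF and STAT3 targets, each positive (among them Socs2 0.83, Lifr 0.53 and Pim1 0.61), 3 and 4 of 15 FOXO and PI3K feedback genes, 2 and 1 of 12 Wnt targets, 2 and 2 of 15 YAP and adhesion targets, and 4 and 1 of 13 genes of the NRF2 and xenobiotic response. Cytoskeletal SRF targets had 3 positive of 19 (Actn4 1.07, Tpm3 0.57, Vcl 0.34), heat shock genes 3 of 14, genes of the integrated stress and unfolded protein response 2 of 21, and long-lived abundant mRNAs 2 of 16 (Eno1 0.30 and Rpl3 0.26, lost in 21 and 20 of 26 alternatives). Without clone c the counts were 3 for LIF targets, 2 and 0 for FOXO genes, 0 and 0 for Wnt targets, 1 and 0 for YAP targets, 1 and 0 for NRF2 genes, 0 for heat shock genes and 1 for stress response genes. Heat shock genes had 6 without clone a of PP1 and 5 without clone a of MEKi.

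**Figure D3:**
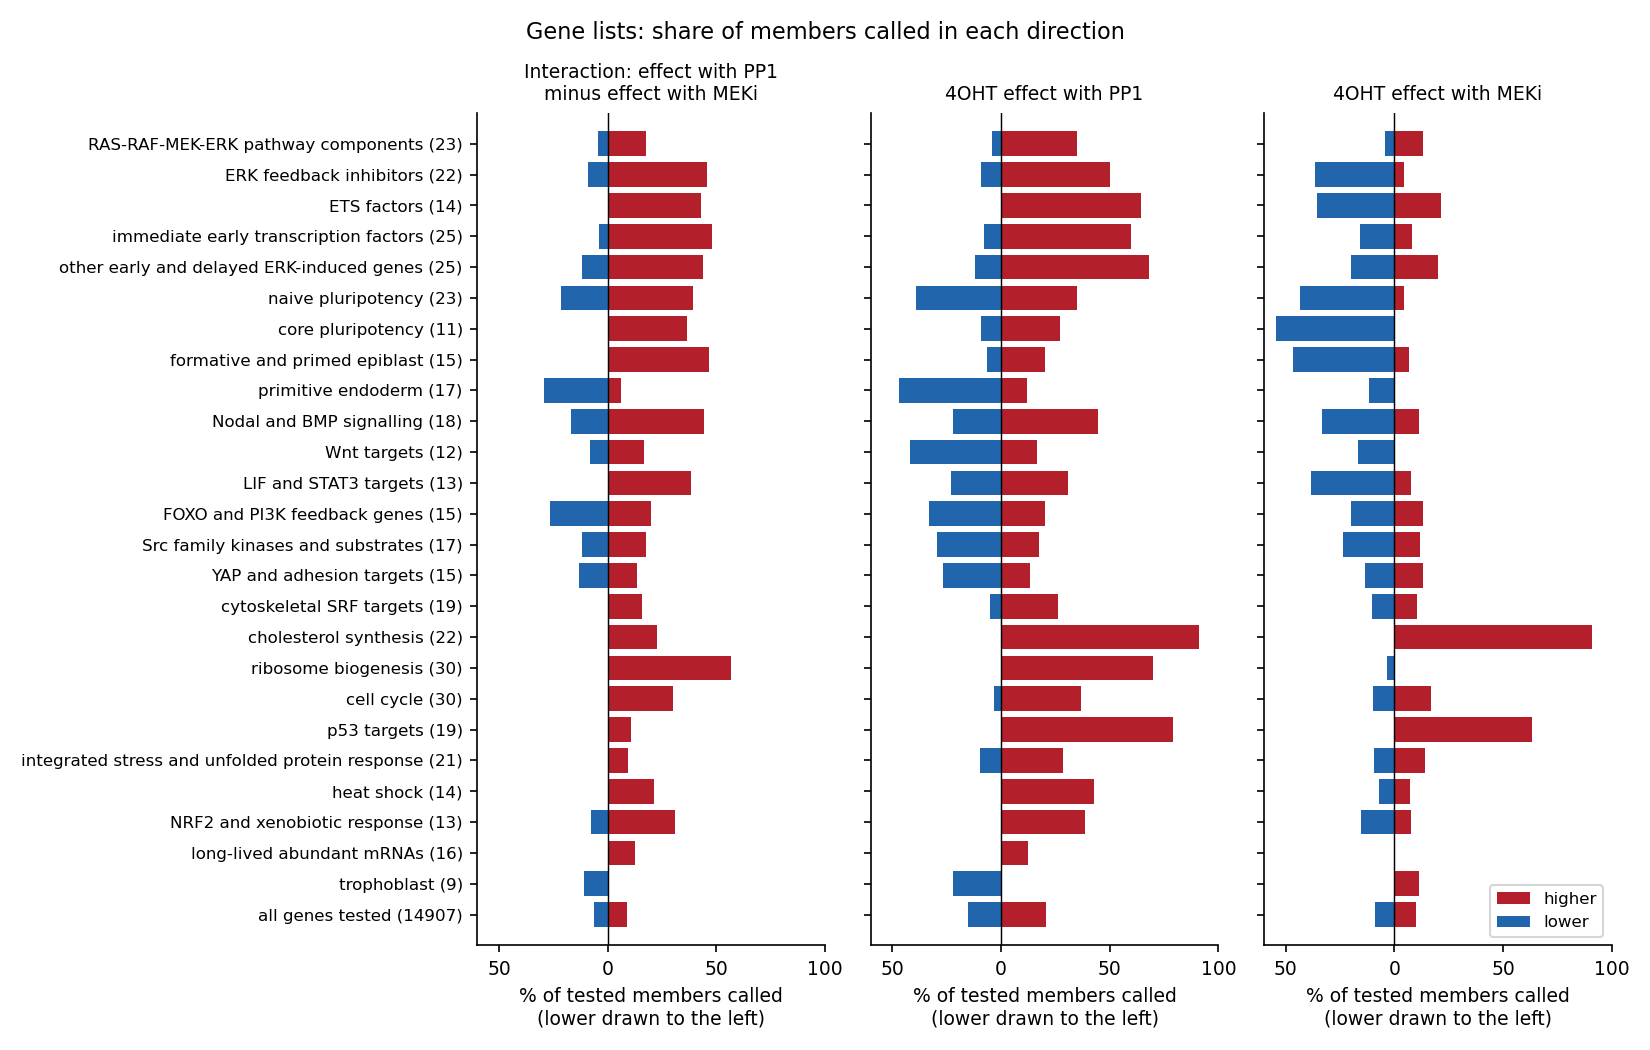
Share of the measured members of each gene list (number in brackets) called higher (red, to the right) or lower (blue, to the left) in the interaction, in the 4OHT effect with PP1 and in that with MEKi, with all 14907 genes at the bottom. Feedback inhibitors, ETS factors and ribosome biogenesis genes differ between arms, while cholesterol synthesis genes rise in 90.9% of members in both.

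Among genes outside these lists, the largest positive interactions included Rerg, a RAS-like GTPase, with 39.1, 38.6 and 36.4 CPM in PP1 with 4OHT, against 12.2, 14.5 and 11.4 CPM in PP1, and 3.70, 2.90 and 1.96 CPM in MEKi with 4OHT, against 13.5, 12.4 and 18.1 CPM in MEKi (3.93 ± 0.24, edgeR adjusted p = 1.75e-11). Nrp2, a semaphorin and VEGF coreceptor (3.46 ± 0.15), and Ccdc3 (3.41 ± 0.36) were of the same kind. The smallest adjusted p among positive genes, beside Spry4 and Slc7a7, belonged to Adam23, Enox1 and Slc39a14. Adam23, a cell surface protein, had 641, 614 and 538 CPM in PP1 with 4OHT, against 330, 339 and 308 CPM in PP1, and 96.1, 96.7 and 84.6 CPM in MEKi with 4OHT, against 317, 330 and 296 CPM in MEKi (2.64 ± 0.10, edgeR adjusted p = 1.31e-15). Its groups without 4OHT overlapped, and those with 4OHT lay above and below them. Slc39a14, a zinc and iron transporter, had an interaction of 3.29 ± 0.13.

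Among the negative interactions, Ndrg1, a stress- and differentiation-linked gene (ENSMUSG00000005125.13, chromosome 15, 66929318 to 66969640, minus strand), had the smallest adjusted p. It had 10.9, 11.9 and 11.1 CPM in PP1 with 4OHT, against 31.4, 28.3 and 27.2 CPM in PP1, and 50.1, 45.5 and 45.6 CPM in MEKi with 4OHT, against 26.1, 30.3 and 24.4 CPM in MEKi. It fell with PP1 by 1.34 and rose with MEKi by 0.81 on the log2 scale (interaction -2.16 ± 0.15, edgeR adjusted p = 1.2e-10). Padi2, a peptidylarginine deiminase, had 3.54, 3.89 and 4.63 CPM in PP1 with 4OHT, against 9.95, 10.2 and 7.96 CPM in PP1, and 14.5, 16.97 and 20.3 CPM in MEKi with 4OHT, against 6.94, 8.83 and 6.89 CPM in MEKi (-2.40 ± 0.28, edgeR adjusted p = 9.74e-07). Atp6v0a4, a subunit of the vacuolar proton pump, had 3.16, 3.89 and 1.72 CPM in PP1 with 4OHT, against 14.6, 12.4 and 12.2 CPM in PP1, and 21.1, 16.5 and 14.8 CPM in MEKi with 4OHT, against 10.2, 8.83 and 11.8 CPM in MEKi (-2.85 ± 0.27, edgeR adjusted p = 2.97e-08).

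The RNA-binding protein Nova2 (-1.46 ± 0.13), the small heat shock protein Hspb8 (-1.32 ± 0.12), Dpysl5 (-1.28 ± 0.12) and Adap1 (-1.19 ± 0.11) followed Ndrg1 in adjusted p, each falling with PP1 and rising with MEKi. Spic, an ETS-related factor, had 0.575, 1.17 and 1.72 CPM in PP1 with 4OHT, against 5.36, 5.47 and 5.64 CPM in PP1, and 6.84, 7.29 and 7.16 CPM in MEKi with 4OHT, against 7.19, 4.91 and 6.31 CPM in MEKi (-2.51 ± 0.38, edgeR adjusted p = 3.54e-05). Only PP1 with 4OHT stood apart. Cacng5 (-2.99), Foxi3 (-2.90), Cyp4f39 (-2.64), Slc2a2 (-2.63), Hrh2 (-2.54), Ap3b2 (-2.50) and Gsx2 (-2.42) had SEs of 0.45 to 0.57, and their levels in PP1 with 4OHT were 0.194 to 1.99 CPM, around the 3-count level. Without clone c the calls of Cyp4f39 (edgeR adjusted p = 0.0501), Gsx2 (0.0501) and Slc2a2 (0.105) were lost.

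**Figure D4:**
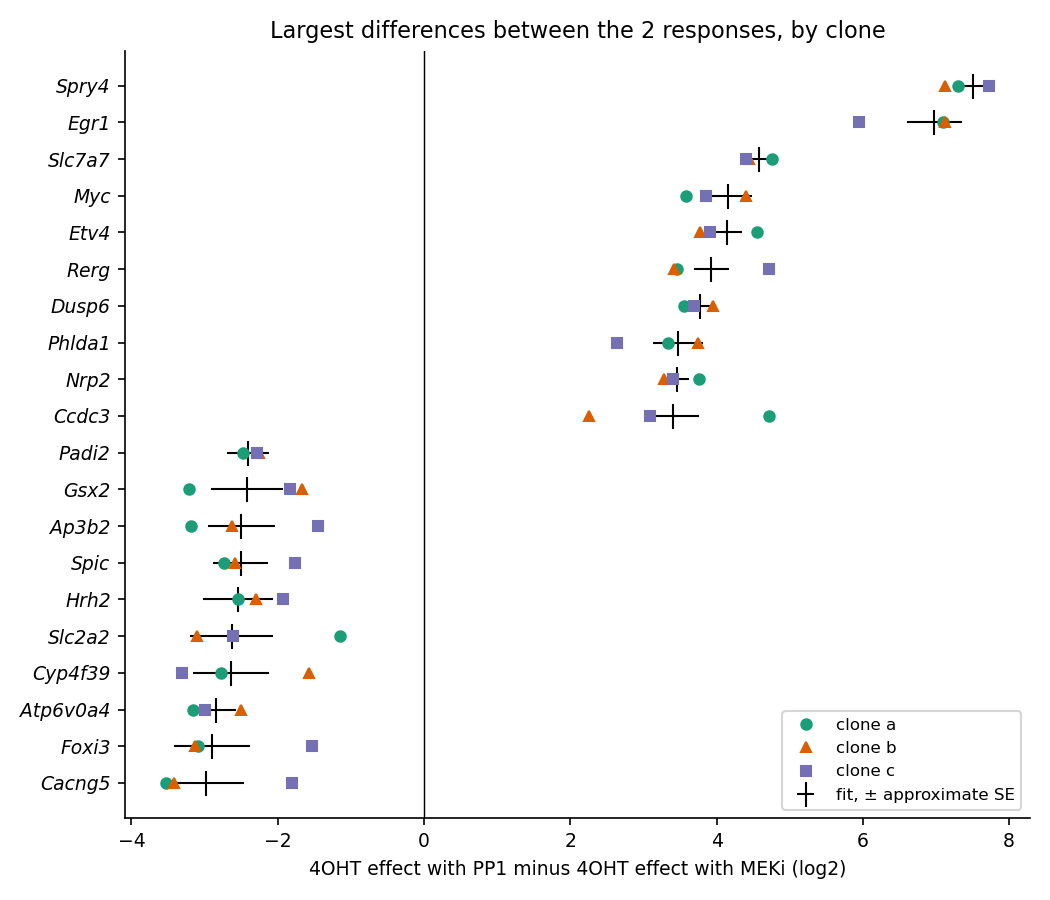
The interaction in log2 units for the 10 largest positive and 10 largest negative named genes, with the fitted value ± its approximate SE in black and the value computed within each clone as coloured points. The 3 clones of Spry4 lie between 7.13 and 7.72, and all 3 clones lie on 1 side of 0 for each gene, as the choice of these genes required.

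In the libraries without 4OHT, 14 genes were higher in PP1 than in MEKi. By adjusted p they were led by Spry4, Spry2, Id3, Dusp6 and Noct, the circadian gene nocturnin. The log2 differences of PP1 minus MEKi were 1.40 for Spry4, 0.80 for Spry2, 2.06 for Id3, 1.02 for Dusp6 and 0.67 for Noct. The others included Tiparp (0.54), Nr0b1 (0.71), Zfp36l1 (0.57), Zic2 (0.63), Cdc42ep4 (0.50), Enc1 (0.45), Zfp819 (0.64) and Dppa2 (0.42). Each of the 14 was also called positive in the interaction, which subtracts the difference without 4OHT. Noct had 211, 186 and 169 CPM in PP1 with 4OHT, against 61.3, 70.6 and 63.7 CPM in PP1, and 21.9, 20.2 and 18.6 CPM in MEKi with 4OHT, against 43.8, 38.8 and 41.6 CPM in MEKi (interaction 2.55 ± 0.12, edgeR adjusted p = 1.22e-13).

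The response without PP1 or MEKi, called the response without inhibitor here, used 5 libraries that the interaction does not. PD173074 was given to these cells too. In 4OHT against DMSO, 8032 genes were called (53.9%), and 3958 were higher (26.6%) and 4074 lower (27.3%). Of the 1319 positive genes, 910 (69.0%) were higher and 143 (10.8%) lower in 4OHT, with a median log2 change of 0.52. Of the 923 negative genes, 53 (5.74%) were higher and 729 (79.0%) lower, with a median of -1.02. Over all genes tested the median was -0.03. Across the 14907 genes, which are not independent replicates, the interaction and the uninhibited change had a Pearson's r of 0.427, and the change with PP1 and with MEKi had an r of 0.495 and 0.052 with the uninhibited change. All of these values come from 1 fit and the same clones.

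Read from the other side, 951 genes were at least 2-fold higher in 4OHT than in DMSO. Of these, 288 (30.3%) were positive and 21 (2.21%) negative in the interaction. Their median change was 1.53 without inhibitor, 0.40 with PP1 and 0.01 with MEKi. Of 1816 genes at least 2-fold lower in 4OHT than in DMSO, 30 (1.65%) were positive and 467 (25.7%) negative, and the medians were -1.45 without inhibitor, -0.56 with PP1 and -0.08 with MEKi. For single genes the change with PP1 ranged from close to the uninhibited one to a small part of it. Spry4 changed by 4.07 with PP1 and 4.34 without inhibitor, Egr1 by 4.90 and 5.21, and Etv4 by 1.85 and 1.69, while Arc changed by 2.05 and 5.73, Phlda1 by 2.11 and 5.69, and Prdm14 by -1.64 and -3.27. The levels themselves still differed: Spry4 was at 730 to 837 CPM in PP1 with 4OHT, against 2182 to 2473 CPM in 4OHT without PP1 or MEKi.

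Other positive genes had no matching uninhibited change. Cdk6 (log2 -0.06 ± 0.09, edgeR adjusted p = 0.623), Tdh (-0.09, edgeR adjusted p = 0.434) and Slc7a7 were not called in 4OHT against DMSO. Etv6 (-0.26), Pax6 (-0.63), Otx2 (-0.60), Lifr (-1.26) and Tdgf1 (-0.87) were lower there. For each gene named here the fall with MEKi was larger in size than the change with PP1.

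**Figure D5:**
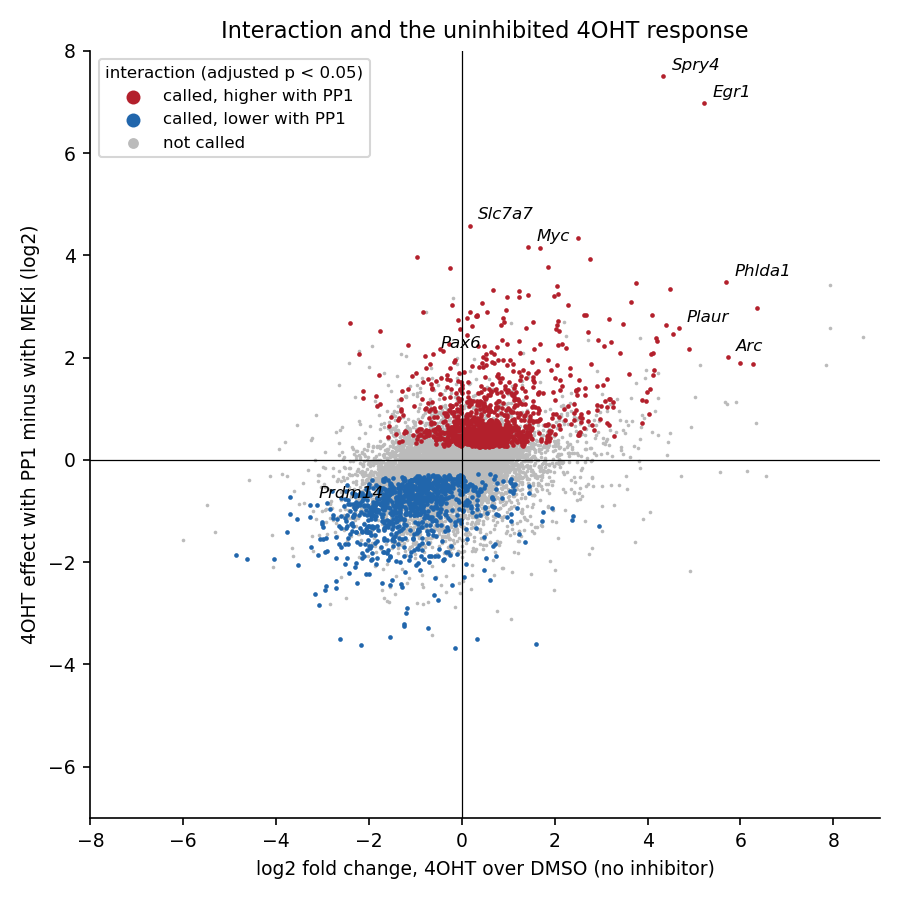
Each point is 1 of 14907 genes, placed by its log2 fold change in 4OHT over DMSO without inhibitor (horizontal) and its interaction (vertical), with red for the 1319 positive, blue for the 923 negative and grey for the other genes. Most positive genes lie to the right of 0 and most negative genes to the left, with Slc7a7 near 0.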

How the data were processed

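New RNA was marked with ethynyl uridine, captured and sequenced in 17 libraries. The authors deposited raw counts per gene symbol in 1 table. STAR and featureCounts are named with the mm10 build, per the submitters' processing notes; versions, gene annotation, strand setting and the handling of multiply mapped reads are not stated there or in the labels. Counts of overlapping genes are therefore uncertain.

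All 17 libraries were fitted together in edgeR 4.0.16 (R 4.3.3) with TMM scaling, its default filter on low counts, 1 term per group and clone as a block (9 residual degrees of freedom, common biological coefficient of variation 0.087). Robust quasi-likelihood tests gave 6 comparisons, and each was adjusted by Benjamini-Hochberg over 14907 genes, with calls at an adjusted p under 0.05. SEs are approximate, the absolute log2 value divided by the square root of the test's F. Values within a clone used log2 CPM with a prior count of 2. Alternatives used DESeq2 1.42.0, limma-voom 3.58.1, other scalings and filters, and left-out libraries or clones.

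The clone letters in the titles pair the libraries. Deviations from the group means correlated by 0.0673 on average in 18 pairs of 1 clone (-0.147 to 0.311). In 36 pairs of different clones the average was -0.033 (-0.404 to 0.404). Centring on group means ties these averages to each other, so they are not an independent check of the pairing. In simulated counts of the interaction over 14660 genes, 29.9%, 65.7% and 93.9% of changes of 1.5, 2 and 4-fold were recovered, and 4.55% of 132 calls were false. Only 200 genes were changed there, in PP1 with 4OHT alone, with no clone effect and no other group difference. The false share is therefore not an error rate for the calls in the real libraries.

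Named genes were those with the 10 largest positive and 10 largest negative interactions and the 5 smallest adjusted p in each direction, among called genes with a mean log2 CPM of at least 1 and 1 sign in all 3 clones. Up to 6 genes opposed in the arms, up to 4 called members of each list and a set of signalling and pluripotency genes were added. The members and lists were chosen with earlier results of these data known. Further genes named only with a value, and Noct, Dusp5, Dusp8, Fosb, Ccnd2 and Gbx2 among them, were chosen after their values were seen. GENCODE M21 gave coordinates and RefSeq the promoters. Results of some items are not reported here.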

Additional observations from a re-analysis of the deposited data

Results flagged for a closer look

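The response to 4OHT was called in opposite directions in the 2 arms at 281 genes higher with PP1 and lower with MEKi and 125 genes with the reverse order. The 281 were 21.5% of the genes lower with MEKi, while 20.5% of all genes tested were higher with PP1. The 125 were 8.58% of the genes higher with MEKi, while 15.2% of all genes tested were lower with PP1. The 6 named here have the largest opposed changes under the naming rule, and the difference was tested by the interaction term of the edgeR fit. The log2 differences were 7.51 for Spry4, 6.98 for Egr1, 4.58 for Slc7a7, 4.16 for Myc, 4.15 for Etv4 and 3.78 for Dusp6. The rule required opposed calls and 1 sign in all 3 clones, so both are a description. No group held enough libraries to look for single libraries far from the rest.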

How the results depend on the processing

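Of 122 named genes, 114 were called in the interaction and 58 of these kept the call in all 26 alternatives. Scaled by library totals alone, the interaction had 272 higher and 252 lower genes, the PP1 arm 1859 and 623, and the MEKi arm 868 and 191. PP1 against MEKi had 643 and 1512 with 4OHT and 2 higher without it, and 4OHT without inhibitor had 1225 higher. With the high-count loci also left out, the interaction had 813 and 1537, PP1 against MEKi with 4OHT 1555 and 3522, and 4OHT without inhibitor 2358 higher. Without the 2 libraries of highest background, the MEKi arm had 639 and 707, and PP1 against MEKi without 4OHT 9 and 1. The cause was not tested. Leaving out 1 library or 1 clone gave 439 to 1593 higher and 281 to 1275 lower genes in the interaction, 1144 to 3080 and 972 to 2662 in the PP1 arm, and 255 to 1810 and 445 to 1767 in the MEKi arm. PP1 against MEKi had 1259 to 2881 and 1014 to 2644 with 4OHT, and 1 to 25 and 0 to 1 without it. 4OHT without inhibitor had 2675 to 4223 and 2446 to 4408. The fit without the clone as a replicate block had 1105 higher and 724 lower genes in the interaction. Values that changed sign were not called: Mapk3 was -0.0255 with the loci left out and library totals, and leave-outs gave -0.13 to 0.28 for Mapk3 and -0.0423 to 0.93 for Pou5f1. Several genes with a large negative interaction had few counts in PP1 with 4OHT, which limits the precision of their values.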
